A study of Mus musculus with 2 samples.

Results

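The expressed Zfp genes of MIN6 cells were described by RNA sequencing at a high and a low glucose concentration. Zfp is the mouse symbol for a zinc finger protein gene, and the members were the protein-coding rows whose symbol is Zfp followed by a number and whose mean over both libraries was at least 1 FPKM, a fragment count scaled to transcript length and library size. This gave 271 genes of 397 protein-coding Zfp rows, within 10963 protein-coding genes at the same level and 55466 rows in all. The level chose the members, so being expressed is no result here.

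MIN6 (Mouse Insulinoma 6) is an insulin-secreting line from insulinomas of mice that carry SV40 large T antigen under the insulin promoter, and serves as a beta-cell model. After 0.5 h at 2.8 mM glucose in Krebs-Ringer buffer, cells were held for 1 h at 25 mM glucose, the hyperglycemic condition of the labels, or at 2.8 mM glucose, the hypoglycemic one. Each concentration had 1 library, with no statement of whether 1 culture or several went into it. The values below therefore carry no replicate error, none of the differences was tested, and each difference is one between 2 libraries.

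Most Zfp proteins carry C2H2 zinc fingers. In each finger a pair of cysteines and a pair of histidines hold a zinc ion, and tandem fingers joined by a short linker read DNA a few bases at a time. The largest class also carries a KRAB box, which recruits the corepressor Trim28 and, through it, the histone methyltransferase Setdb1 and HP1 proteins. In mouse embryonic stem cells this machinery silences retroelements and protects imprinted loci, and KRAB zinc finger genes lie in clusters of near copies. Other Zfp genes share only the name: some bind RNA or ribosomes, some are ubiquitin or SUMO ligases, and the Zfp36 family binds AU-rich mRNA through CCCH fingers.

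The domain entries in the deposited annotation divided the members. A KRAB box was listed for 141 of 271. A further 98 had at least 3 C2H2 fingers and no KRAB entry, 21 had fewer than 3 fingers, 2 had CCCH fingers and 9 had no domain entry at all. SCAN, a dimerization domain, was listed for 11 members, 7 of them with KRAB, and BTB, a protein interaction domain, for 2. At least 1 finger pattern was found in the longest coding sequence of 263 members, with a median of 10 fingers and at most 36 (Zfp142). KRAB members had a median of 12 fingers and the others 7. The linker TGEKP, which joins classical fingers, followed at least 1 finger in 190 members.

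Some of these genes are near copies of one another, and short reads from a copy can be credited to the wrong gene. The stretches below are shown because the member with the highest log2 change, Zfp969, lies in such a group. Each matches finger 6 of 11 in Zfp969 with its linker, 78 bases from the coding strand of chromosome 2 (GENCODE transcripts, GRCm38). In the first line capitals mark the codons of the cysteines and histidines that bind zinc, and in the other lines they mark bases that differ from Zfp969.
Zfp969: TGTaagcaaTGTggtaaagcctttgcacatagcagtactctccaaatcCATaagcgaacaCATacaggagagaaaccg
Zfp966: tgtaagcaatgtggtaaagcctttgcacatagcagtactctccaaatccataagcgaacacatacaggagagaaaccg
Zfp973: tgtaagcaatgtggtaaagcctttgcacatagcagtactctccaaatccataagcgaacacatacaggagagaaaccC
Zfp971: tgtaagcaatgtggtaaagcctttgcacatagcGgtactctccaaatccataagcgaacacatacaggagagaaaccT
Zfp972: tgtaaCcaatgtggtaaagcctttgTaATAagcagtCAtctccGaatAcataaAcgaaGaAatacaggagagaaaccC
Zfp967 and Zfp968 have the same 78 bases as Zfp966, with 0 differences from Zfp969, while Zfp973 has 1, Zfp970 and Zfp971 have 2 each. Zfp972, whose longest coding sequence held no full finger pattern, has 13. Every 31-base word of the longest Zfp969 transcript (100%) also occurred in transcripts of Zfp966, of Zfp967 and of Zfp968.

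A second pair of copies is the KRAB gene Zfp932 and Gm15446, a neighbouring KRAB gene outside the Zfp symbols, both known in mouse to bind and repress endogenous retroviruses. Their stretches for finger 8 of 15 in Zfp932, on chromosome 5, differ at 3 of 78 bases, which are in capitals in the second line.
Zfp932: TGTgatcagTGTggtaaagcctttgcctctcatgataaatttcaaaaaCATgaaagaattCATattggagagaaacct
Gm15446: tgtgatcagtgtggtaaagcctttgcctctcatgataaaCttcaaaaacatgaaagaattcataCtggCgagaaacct
Of the longest Zfp932 transcript, 53.0% of 31-base words occurred in Gm15446.

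Zfp genes were low-level transcripts. The median member stood at 4.67 FPKM at 25 mM, against 5.17 FPKM at 2.8 mM. The medians of the other 10692 expressed protein-coding genes were 17.1 and 17.5 FPKM at 25 and 2.8 mM. Only 29.2% of members reached a mean of 10 FPKM, compared with 65.6% of all expressed protein-coding genes, and 139 of 271 were below 5 FPKM. Summed over the members, the level was 2377 FPKM at 25 mM, against 2549 FPKM at 2.8 mM. KRAB members had medians of 2.98 FPKM at 25 mM, against 3.22 FPKM at 2.8 mM, and C2H2 members without KRAB 9.45 and 9.60 FPKM at 25 and 2.8 mM.

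**Figure D1:**
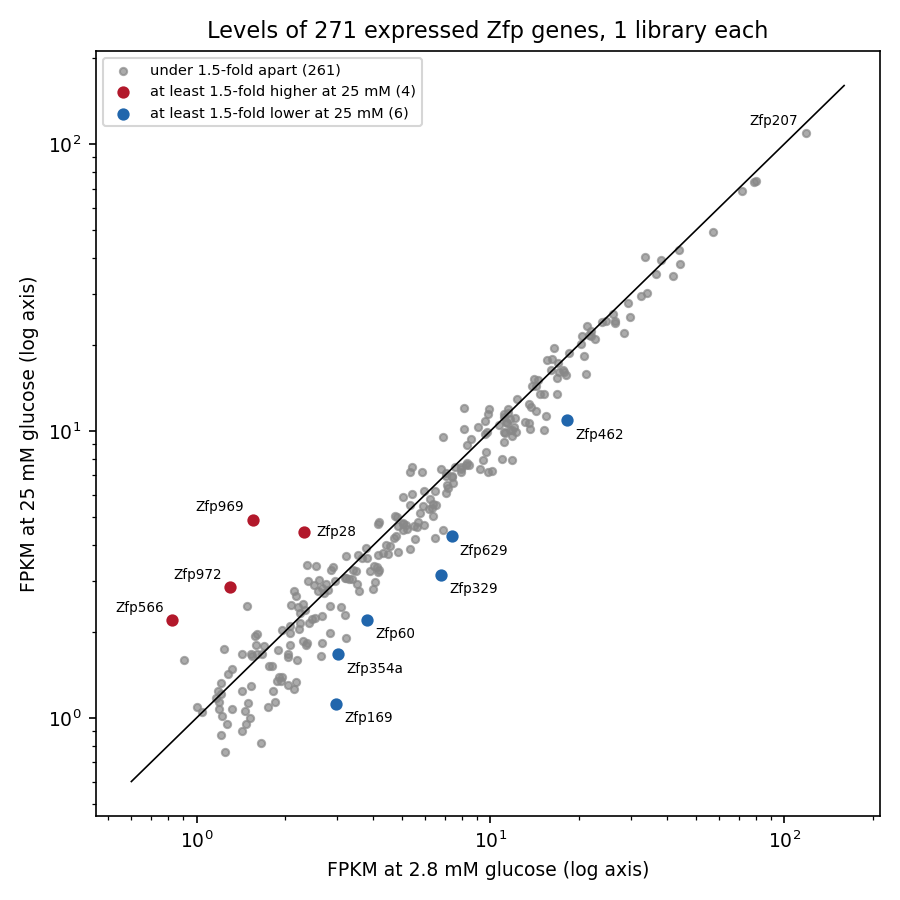
FPKM of each of the 271 expressed Zfp genes at 25 mM (vertical, log axis) against 2.8 mM glucose (horizontal, log axis), 1 library each, with the line of equal level. Most points lie just under the line. Once 1 FPKM is added to each value, 4 genes are at least 1.5-fold higher at 25 mM (red) and 6 at least 1.5-fold lower (blue). All of these are below 20 FPKM.

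The log2 change is the log2 ratio of the 25 mM level to the 2.8 mM level after 1 FPKM was added to each, which understates differences of genes near 1 FPKM. The members lay slightly lower at 25 mM, with a median log2 change of -0.11, and lower and upper quartiles of -0.22 and 0.04. Of the 271, 180 were lower (66.4%, where 54.7% of all expressed protein-coding genes were lower) and 91 higher (background 45.3%). The median over all expressed protein-coding genes was -0.0169. Scaling both libraries to the same FPKM sum left 161 of these 271 members lower and 110 higher, with a median of -0.0434, while it moved the 10963 protein-coding genes to 37.6% lower and a median of 0.0459. Under either scaling the members' median was below that of protein-coding genes. This had to follow, since the scaling moves all genes by nearly the same amount. Lower level per cell and fewer cells of a kind cannot be told apart in such bulk libraries.

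**Figure D2:**
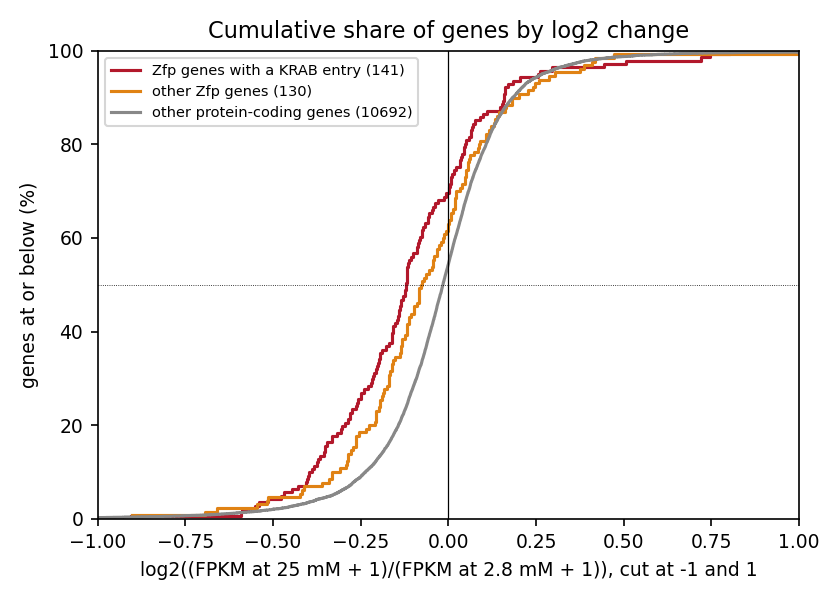
Cumulative share of genes by log2 change for expressed Zfp genes with a KRAB entry, other expressed Zfp genes and other expressed protein-coding genes. The medians of the 141 Zfp genes with a KRAB entry (-0.12, red) and the 130 without (-0.0768, orange) lie left of that of the 10692 other genes (-0.0156, grey). The offsets are small beside the width of each curve.

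Large differences were few on the scale of the log2 change. All fold counts here and below are of levels after 1 FPKM was added. At least 1.5-fold lower at 25 mM were 6 members (background 1.40% of expressed protein-coding genes) and at least 1.5-fold higher were 4 (background 0.857%). At 2-fold, 1 member was higher (background 0.292%) and 0 were lower (background 0.255%). The remaining 261 members (96.3%) lay within 1.5-fold on this scale, where the lower median is made of small differences spread over many genes. With 0.1 FPKM added instead, 19 members were at least 1.5-fold lower and 6 higher, and at 2-fold 2 were lower and 3 higher.

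Among the members that were lower, Zfp169, a KRAB gene with 17 fingers on chromosome 13 (GRCm38, 48487647 to 48513451), had 1.12 FPKM at 25 mM, against 2.97 FPKM at 2.8 mM, a log2 change of -0.91. Zfp329 (chromosome 7, 12804977 to 12818858), with 12 fingers and no KRAB entry, had 3.16 FPKM at 25 mM, against 6.78 FPKM at 2.8 mM (log2 change -0.90). Neither shared much with a copy, with 1.81% and 2.01% of 31-base words found elsewhere.

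Zfp462 (chromosome 4, 54945048 to 55083563) was the most abundant of the 6 and has 33 fingers spread over a protein of 2495 residues. It is a partner of the G9a and GLP methyltransferases that limits open chromatin in mouse embryonic stem cells. Its level was 10.9 FPKM at 25 mM, against 18.2 FPKM at 2.8 mM (log2 change -0.69), and 0.0096% of its words occurred in other genes. Zfp629, with 19 fingers, had 4.30 FPKM at 25 mM, against 7.38 FPKM at 2.8 mM (-0.66).

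The KRAB genes Zfp354a, first described as a kidney gene, and Zfp60 completed the 6. Zfp354a had 1.67 FPKM at 25 mM, against 3.03 FPKM at 2.8 mM (-0.59), and Zfp60 had 2.20 and 3.82 FPKM at 25 and 2.8 mM (-0.59). Just under 1.5-fold once 1 FPKM was added came Zfp111, at 0.816 and 1.66 FPKM at 25 and 2.8 mM (-0.55), and Zfp507, at 10.1 and 15.2 FPKM at 25 and 2.8 mM (-0.55). Zfp26 followed at 1.90 FPKM at 25 mM, against 3.22 FPKM at 2.8 mM (-0.54), and Zfp637 at 7.95 and 11.8 FPKM at 25 and 2.8 mM (-0.52). Of these 10 lowest members 5 were KRAB genes, and 1, Zfp507, shared at least 20% of its words with other genes, counted jointly.

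Of the 10 highest members, 5 shared at least 20% of their words with other genes. Zfp969 (chromosome 2, 175692223 to 175703646), the member with identical copies, had 4.91 FPKM at 25 mM, against 1.55 FPKM at 2.8 mM, a log2 change of 1.21. Its copies were lower at 25 mM. Zfp966 had 0.335 FPKM at 25 mM, against 0.668 FPKM at 2.8 mM, Zfp967 0.233 and 0.547 FPKM at 25 and 2.8 mM, and Zfp968 0.305 and 0.479 FPKM at 25 and 2.8 mM. Summed, these 4 genes had 5.78 FPKM at 25 mM, against 3.25 FPKM at 2.8 mM, a log2 change of 0.68. How reads were divided among them was not tested.

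Zfp566, a KRAB gene with 7 fingers, had 2.19 FPKM at 25 mM, against 0.827 FPKM at 2.8 mM (0.80) with 17.1% of its words shared, the 1 member past 1.5-fold higher that was below 20%. Zfp972 had 2.86 and 1.30 FPKM at 25 and 2.8 mM (0.75). Its longest transcript is 561 nt and shares 41.6% of its words with the pseudogene Gm15280 and 20.7% with Eci2, an enoyl-CoA isomerase gene. Zfp28 had 4.45 FPKM at 25 mM, against 2.31 FPKM at 2.8 mM (0.72), and 24.6% of its words occurred in the processed pseudogene Gm3203, which was listed at 0 in both libraries.

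Below 1.5-fold once 1 FPKM was added, Zfp101, a KRAB gene with 12 fingers, was the most abundant of the 10 highest, at 12.02 FPKM at 25 mM, against 8.16 FPKM at 2.8 mM (0.51). Zfp532 had 2.45 and 1.49 FPKM at 25 and 2.8 mM (0.47), and Zfp982 1.59 and 0.905 FPKM at 25 and 2.8 mM (0.44). Zfp385a, an RNA-binding partner of p53 in mouse, had 9.53 FPKM at 25 mM, against 6.88 FPKM at 2.8 mM (0.42), with none of its words shared. Zfp688 had 7.50 and 5.41 FPKM at 25 and 2.8 mM (0.41), and Zfp710 3.40 and 2.37 FPKM at 25 and 2.8 mM (0.39).

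Over all members, 53 shared at least 20% of their words with other genes. These had a median log2 change of -0.06, with 29 lower and 24 higher, which became -0.00094, with 27 lower and 26 higher, at the same FPKM sum. They held 3 of the 4 genes past 1.5-fold higher and 0 of the 6 past 1.5-fold lower. The 218 that shared less had a median of -0.11, with 151 lower (69.3%) and 67 higher (-0.0502, 134 and 84 at the same sum). Zfp932 had 18.3 FPKM at 25 mM, against 20.8 FPKM at 2.8 mM (-0.18), whereas its copy Gm15446 had 17.9 and 1.85 FPKM at 25 and 2.8 mM, and the sum of both was 36.2 FPKM at 25 mM, against 22.6 FPKM at 2.8 mM. Zfp955a and Zfp955b lay in opposite directions, with 4.56 and 5.22 FPKM at 25 and 2.8 mM for Zfp955a, 4.73 and 4.14 FPKM at 25 and 2.8 mM for Zfp955b, and a sum of 9.29 FPKM at 25 mM, against 9.36 FPKM at 2.8 mM. Values of single genes within such groups are uncertain. Sharing at least 20% of words need not mean a copy, since 27.5% of the words of Zfp142 occurred in Plcd4, which is not a Zfp gene.

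**Figure D3:**
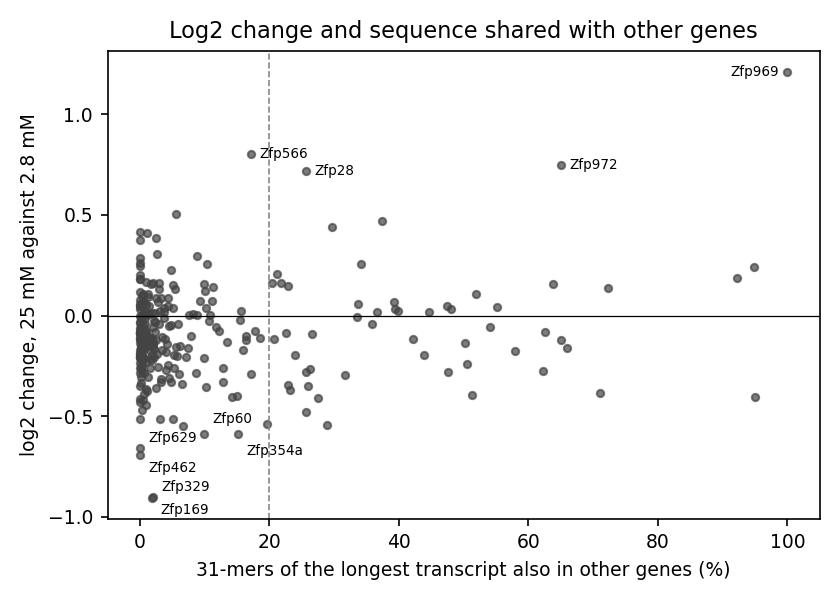
Log2 change of each member against the percentage of its 31-base words found in transcripts of other genes, 1 point per gene, with a dashed line at 20%. Of the 4 members past 1.5-fold higher, 3 lie at 20% or more, and all 6 past 1.5-fold lower lie below 20%.

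The most abundant members differed little between the libraries. Zfp207, also called BuGZ, which binds microtubules and the checkpoint protein Bub3 at mitosis, was first with 109.4 FPKM at 25 mM, against 118.8 FPKM at 2.8 mM (log2 change -0.12). Zfp664 had 74.2 and 80.5 FPKM at 25 and 2.8 mM (-0.12), and Zfp367 73.9 and 79.2 FPKM at 25 and 2.8 mM (-0.10). Zfp131, a BTB protein, had 68.5 FPKM at 25 mM, against 71.7 FPKM at 2.8 mM (-0.06). Of the 13 members at 30 FPKM or more, 11 were lower at 25 mM, with a median of -0.12. The 3553 other protein-coding genes at that level had a median of -0.0040, with 51.5% lower. Of the 11, Zfp131 and Zfp91 did not keep their sign under every setting. The count was not repeated at the same FPKM sum.

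Zfp511 had 38.3 FPKM at 25 mM, against 44.0 FPKM at 2.8 mM (-0.20), and Zfp106, an RNA-binding protein needed for motor neuron maintenance in mouse, 34.7 and 41.8 FPKM at 25 and 2.8 mM (-0.26). The exceptions were Zfp146, a protein made almost wholly of fingers, at 39.4 FPKM at 25 mM, against 38.0 FPKM at 2.8 mM (0.05), and Zfp706, at 40.5 and 33.7 FPKM at 25 and 2.8 mM (0.26).

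By domain class, KRAB members had a median log2 change of -0.12, with 98 lower and 43 higher (-0.0666, 93 and 48 at the same FPKM sum). Members with C2H2 fingers and no KRAB entry had -0.09, with 63 lower and 35 higher (-0.0260, 53 and 45 at the same FPKM sum). The 21 members with fewer than 3 fingers had -0.05, with 12 lower and 9 higher, a median that became 0.01 when both libraries were scaled to the same FPKM sum. The 9 without a domain entry had -0.0022 (0.06 at the same sum). The 11 SCAN members had -0.17, with 8 lower and 3 higher (-0.11 at the same sum). No difference between classes was tested.

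By number of fingers, members with 0 to 4 fingers had a median of -0.0315 (0.0319 at the same FPKM sum), those with 5 to 9 had -0.08 (-0.0201), those with 10 to 14 had -0.11 (-0.0596) and those with 15 or more had -0.19 (-0.14). Of the 53 genes with 15 or more fingers, 42 (79.2%) were lower. Among these, the 34 with KRAB had a median of -0.19 and the 19 without had -0.17. The GC content of the longest transcript moved with finger number, with medians of 49.3%, 47.0%, 42.3% and 41.2% over the 4 groups. Its median length was 3801, 3179.5, 3685.5 and 4615 nt, longest in the group with 15 or more fingers. Other protein-coding genes had medians of -0.0078 at 3000 to 4500 nt, -0.0271 at 4500 to 7000 nt and -0.0598 at 7000 nt or more. The part of GC content or length in the order was not tested.

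**Figure D4:**
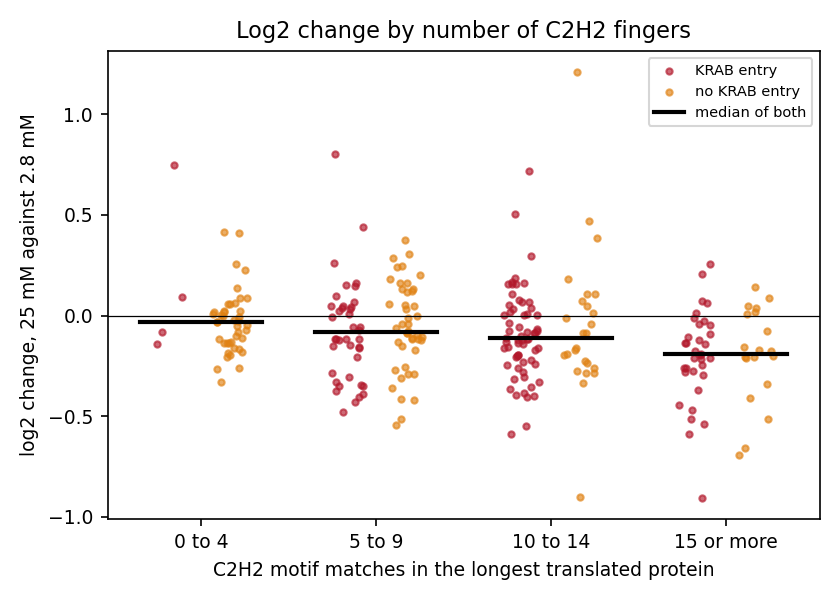
Log2 change of the members by number of C2H2 finger patterns in the longest coding sequence, 1 point per gene, red with and orange without a KRAB entry, with the median of each group of 46, 84, 88 and 53 genes as a line. The medians run -0.0315, -0.08, -0.11 and -0.19, and the groups overlap widely.

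Members were also split by the GC content of the longest transcript. Below 50% GC, 191 members had a median log2 change of -0.12 and 72.3% were lower, where 5497 other protein-coding genes had -0.0257 and 57.8%. At the same FPKM sum these medians became -0.0638 and 0.0366. On the deposited scale the 120 KRAB members had -0.13 and the 71 others -0.11. At 50% GC or more, 80 members had a median of -0.0092 with 52.5% lower, and 5185 other genes had -0.0043 with 50.8% lower, medians that became 0.0436 and 0.0589 at the same FPKM sum. The members' median transcript GC was 44.5%, against 49.7% for other protein-coding genes. By level, the median was below that of other genes in each of 5 ranges of mean FPKM, from -0.14 against -0.0244 at 1 to 2 FPKM to -0.12 against -0.0040 at 30 FPKM or more.

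Genes of known roles were grouped by lists. As the background for the counts of each list, 66.4% of all members and 54.7% of expressed protein-coding genes were lower. No list was tested. The imprinting and retroelement list of KRAB proteins had 4 of 6 genes expressed, with 3 lower and 1 higher. Its median was -0.19 (-0.13 at the same FPKM sum). Zfp445, which protects imprints, was the most abundant KRAB member, at 49.5 FPKM at 25 mM, against 57.3 FPKM at 2.8 mM (-0.21). Zfp809, which silences murine leukemia virus sequences, had 4.80 and 5.68 FPKM at 25 and 2.8 mM (-0.20). Zfp568, which represses the placental Igf2 promoter in mouse embryos, had 11.2 FPKM at 25 mM, against 11.1 FPKM at 2.8 mM (0.0071). Zfp57, the best known imprint protector, was listed at 0 in both libraries, and Zfp708 had 0.129 and 0.133 FPKM at 25 and 2.8 mM.

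For the machinery that KRAB proteins recruit, 24 symbols were listed, 23 had a row and 22 were expressed, all but Dnmt3b, with 12 lower, 10 higher, 0 past 1.5-fold and a median of -0.0242 that became 0.0405 at the same FPKM sum. Trim28 itself had 137 FPKM at 25 mM, against 156 FPKM at 2.8 mM (-0.18), and Setdb1 18.2 and 17.5 FPKM at 25 and 2.8 mM. The HP1 gene Cbx5 had 68.1 FPKM at 25 mM, against 73.2 FPKM at 2.8 mM.

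In the list of corepressor and methyltransferase partners, 9 of 11 genes were expressed, with 7 lower, 2 higher and a median of -0.13. Of all members, 66.4% were lower. Besides Zfp462, this held Zfp644, another G9a partner, at 22.0 FPKM at 25 mM, against 28.5 FPKM at 2.8 mM (-0.36). Zfp703, which works with Groucho corepressors, had 1.24 and 1.82 FPKM at 25 and 2.8 mM (-0.33), and Zfp516, a partner of Prdm16 in brown fat, 9.62 and 11.9 FPKM at 25 and 2.8 mM (-0.28). Zfp827, Zfp518b and Zfp518a lay between -0.13 and -0.04. Higher were Zfp609, at 12.9 FPKM at 25 mM, against 12.3 FPKM at 2.8 mM, and Zfp217, a partner of CtBP, at 1.93 and 1.58 FPKM at 25 and 2.8 mM. Zfp423 was listed at 0 in both libraries.

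The 3 zinc finger proteins that assemble with the chromatin reader Zmynd8 differed in direction. Zfp687 had 11.2 FPKM at 25 mM, against 15.4 FPKM at 2.8 mM (-0.42), Zfp592 had 11.9 and 9.89 FPKM at 25 and 2.8 mM (0.25), and Zfp532, given above, was higher. The summed level of the 3 was 25.6 FPKM at 25 mM, against 26.8 FPKM at 2.8 mM.

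Among activators, 5 of 6 genes were expressed, with 3 lower and 2 higher and a median of -0.15. Zfp410, which drives the gene of the remodeler Chd4, had 23.8 FPKM at 25 mM, against 26.6 FPKM at 2.8 mM (-0.15), and Chd4 had 87.1 and 81.1 FPKM at 25 and 2.8 mM (0.10). Zfp143, which binds promoters at chromatin loops, had 9.38 and 8.58 FPKM at 25 and 2.8 mM (0.12), and Zfp384 had 17.6 and 15.6 FPKM at 25 and 2.8 mM (0.16). Zfp292 had 4.63 FPKM at 25 mM, against 5.62 FPKM at 2.8 mM (-0.23), and Zfp335 had 4.67 and 5.49 FPKM at 25 and 2.8 mM (-0.19). Of the 3 proteins that bind GC-rich promoters, Zfp148 had 15.3 FPKM at 25 mM, against 16.9 FPKM at 2.8 mM (-0.13), Zfp281 2.92 and 3.53 FPKM at 25 and 2.8 mM (-0.21), and Zfp219 23.3 and 21.3 FPKM at 25 and 2.8 mM (0.12).

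The RNA and ribosome list had 10 of 11 genes expressed, with 7 lower and 3 higher, where 66.4% of all members were lower. Its median was -0.09 (-0.0274 at the same FPKM sum). Zfp598, the ubiquitin ligase that marks collided ribosomes, had 28.0 FPKM at 25 mM, against 29.5 FPKM at 2.8 mM (-0.07). Zfp622, whose yeast relative acts in assembly of the large ribosomal subunit, had 24.2 and 26.6 FPKM at 25 and 2.8 mM (-0.13), and Zfp638, a splicing cofactor, 30.3 and 34.1 FPKM at 25 and 2.8 mM (-0.17). Zfp830, a splicing protein, had 10.1 FPKM at 25 mM, against 11.6 FPKM at 2.8 mM (-0.19). Zfp346, which binds double-stranded RNA, had 23.9 and 24.1 FPKM at 25 and 2.8 mM, and Zfp326 21.4 and 20.5 FPKM at 25 and 2.8 mM. Zfp593 was higher, at 6.04 FPKM at 25 mM, against 5.40 FPKM at 2.8 mM, but shared 72.4% of its words. With Zfp598, the ubiquitin ligase Zfp91 (42.7 and 44.0 FPKM at 25 and 2.8 mM) and the SUMO ligase Zfp451 (11.0 and 11.7 FPKM at 25 and 2.8 mM) made up the ubiquitin and SUMO list, whose median was -0.07.

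Zfp36 and its relatives bring deadenylases to AU-rich mRNAs, and Zfp36 is induced early by growth factors in many cells. Here Zfp36 had 1.97 FPKM at 25 mM, against 2.07 FPKM at 2.8 mM (-0.05), and Zfp36l2, the main member, 24.2 and 24.7 FPKM at 25 and 2.8 mM (-0.0266). Zfp36l1 stood at 0.328 and 0.319 FPKM at 25 and 2.8 mM and Zfp36l3 at 0.831 and 0.914 FPKM at 25 and 2.8 mM, both below the level for membership. Of the deadenylation and decapping genes they work with, 16 symbols were listed, 15 had a row and those 15 were expressed, 8 lower and 7 higher, with a median of -0.0171 that became 0.0470 at the same FPKM sum, and 0 past 1.5-fold. The decapping enzyme gene Dcp2 had 15.1 FPKM at 25 mM, against 18.6 FPKM at 2.8 mM (-0.29).

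**Figure D5:**
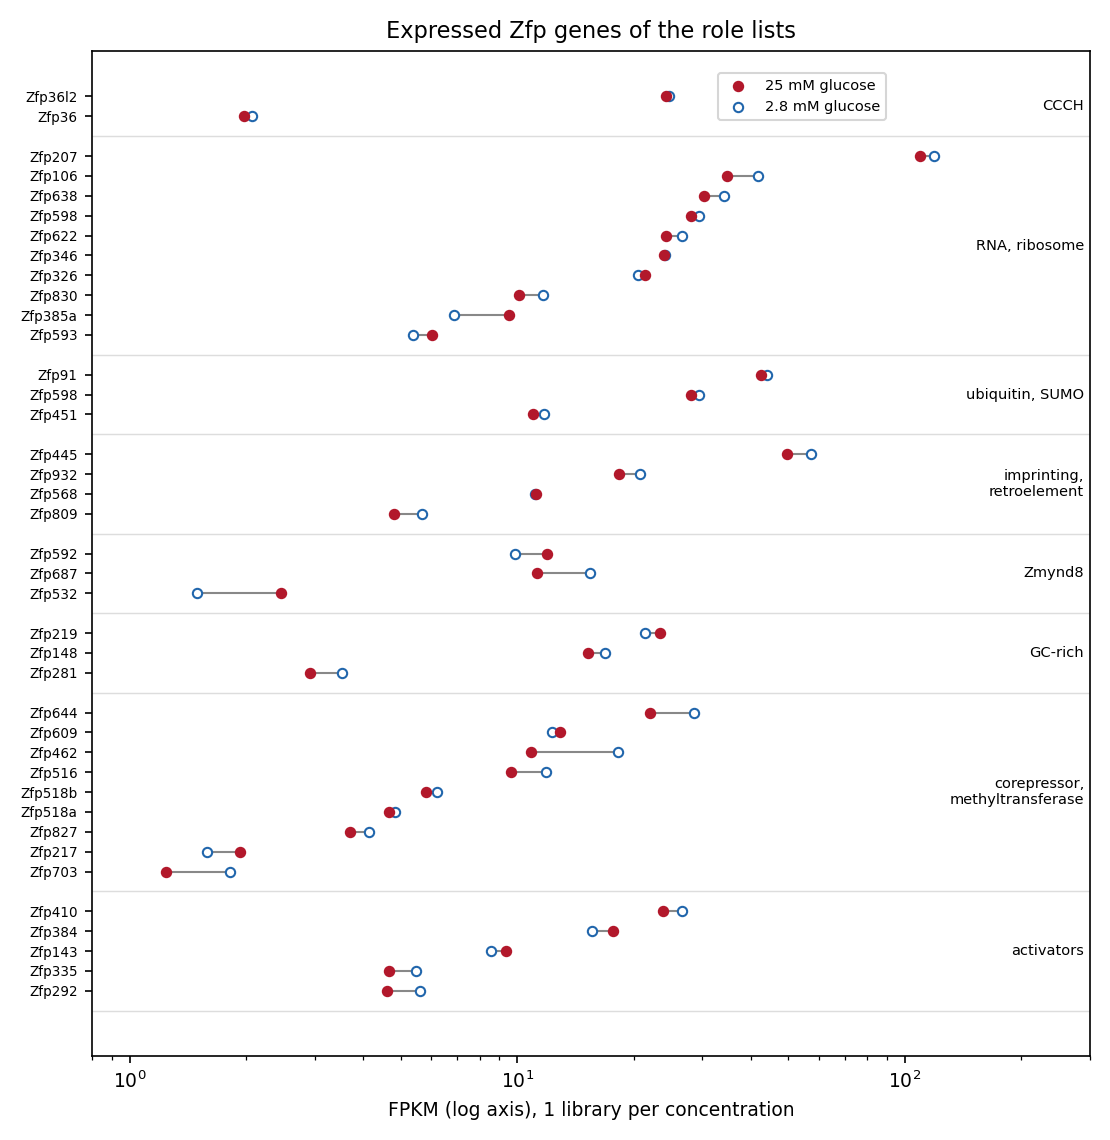
FPKM (horizontal, log axis) of each expressed Zfp gene of the role lists, in the 25 mM library (filled red) and the 2.8 mM library (open blue), joined by a line, with the lists set apart by grey lines. Most pairs nearly touch, and Zfp462, at 10.9 and 18.2 FPKM at 25 and 2.8 mM, is the 1 gene past 1.5-fold once 1 FPKM is added to each value.

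Counting error could be set for genes with a single transcript, whose FPKM values fall on steps worth 1 fragment. For 24 members exact Clopper-Pearson 95% intervals of the ratio between libraries, without the added 1, lay wholly below 0 on the log2 scale for 8 and wholly above 0 for 0 (background 14.9% and 9.10% of 835 protein-coding genes), and held 0 for 16. At the same FPKM sum 5 lay below 0 and 0 above (background 6.59% and 22.2%). Of the 8, 4 (Zfp119a, Zfp345, Zfp772 and Zfp994) shared at least 20% of their words with other genes, where the recovered fragments may not be their own. Of the 16 members that shared less, 4 lay below 0. At the same FPKM sum 1 of these 16 did (6.25%), close to the background of 6.59%. Such intervals hold counting error alone, so they set library against library, not condition against condition. The KRAB gene Zfp948 had 991 fragments at 25 mM and 1378 at 2.8 mM, a log2 ratio of -0.26 with an interval of -0.38 to -0.14. Zfp35 had 455 fragments at 25 mM and 605 at 2.8 mM (-0.19, interval -0.37 to -0.01), an interval that held 0 at the same FPKM sum. Zfp36l2 had 1315 fragments at 25 mM and 1563 at 2.8 mM, and its interval of -0.13 to 0.08 held 0. None of the 10 members past 1.5-fold was among the 24. At 1 FPKM a member of median length (3800 nt) corresponds to 58.8 fragments at 25 mM and 68.5 at 2.8 mM.

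Zfp genes sit in clusters. With neighbours counted when their starts lay within 500 kb, 126 members fell into 19 clusters of at least 3, 44 into 22 pairs, and 101 stood alone. In 6 clusters, with 22 members, all were lower at 25 mM (5 clusters, with 17 members, at the same FPKM sum), and in 0 all were higher. Each of the 6 held only 3 or 5 members, and 66.4% of all members were lower. The largest, on chromosome 17 from 21008903 to 22867134 (GRCm38), held 18 members, all KRAB genes, with 12 lower and 6 higher and a median of -0.11. It ran from Zfp160, at 1.64 FPKM at 25 mM, against 2.65 FPKM at 2.8 mM (-0.47), to Zfp54, at 3.04 and 2.62 FPKM at 25 and 2.8 mM (0.16), and its most abundant gene was Zfp948, at 25.0 and 29.9 FPKM at 25 and 2.8 mM.

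On chromosome 7, which carries 64 members, the clusters differed. The one from 29768552 to 30169750 held 13 members, 5 lower and 8 higher with a median of 0.0152, and ran from Zfp27 (-0.44) to Zfp566 (0.80). Another, from 12478293 to 12985714, held Zfp606, Zfp329, Zfp110, Zfp324 and Zfp446, all 5 lower, with a median of -0.29. On chromosome 9, from 20345136 to 20605409, all 5 KRAB members (Zfp560, Zfp26, Zfp426, Zfp266 and Zfp846) were lower, with a median of -0.26, though 4, all but Zfp560, at the same FPKM sum. No cluster was tested.

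RefSeq promoters (GRCm38.p6, 250 bases before to 50 after the start) were found for 226 members and 8539 other expressed protein-coding genes. The promoter of Zfp329, the member without KRAB that had the lowest log2 change, and that of Zfp101, the most abundant of the 10 highest, are shown with the motifs searched in capitals. Zfp329 is at chr7:12818811-12819110 and Zfp101 at chr17:33394588-33394887, both read from the minus strand, 5′ to 3′.
Zfp329: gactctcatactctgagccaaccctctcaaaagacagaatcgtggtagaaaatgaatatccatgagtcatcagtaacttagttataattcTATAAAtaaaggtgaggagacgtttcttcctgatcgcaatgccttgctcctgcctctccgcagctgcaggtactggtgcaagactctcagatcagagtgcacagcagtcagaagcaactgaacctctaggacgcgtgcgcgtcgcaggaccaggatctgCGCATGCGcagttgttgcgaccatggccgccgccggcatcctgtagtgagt
Zfp101: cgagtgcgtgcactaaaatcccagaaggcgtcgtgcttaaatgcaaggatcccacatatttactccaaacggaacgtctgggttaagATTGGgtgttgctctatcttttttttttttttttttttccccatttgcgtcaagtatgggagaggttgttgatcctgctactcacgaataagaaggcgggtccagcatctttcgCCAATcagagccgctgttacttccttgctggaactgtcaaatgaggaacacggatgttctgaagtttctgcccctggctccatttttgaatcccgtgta
Capitals mark TATAAA (the TATA box) and GCATGCG (the core of the NRF1 motif, found on both strands with 2 overlapping matches) in Zfp329, and CCAAT in Zfp101, once on each strand.

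Motifs were searched as exact letters on both strands, and a gene counted when any of its promoters held the motif. CCAAT was in 51.8% of the 226 members, 60.3% of 126 KRAB members, 43.9% of the other expressed genes and 41.1% of all 27025 genes with a promoter. CACGTG, the E-box that the glucose-responsive factor ChREBP can bind as part of a longer element, was in 7.52% of members and 12.5% of other expressed genes. CCGGAAG, an ETS motif, was in 23.0% and 21.6%, TGACGTCA, the cyclic AMP response element, in 3.54% and 4.03%, AAGATGGC, a YY1 motif, in 7.08% and 5.75%, GCATGCG in 7.08% and 7.93%, and TATAAA in 7.08% and 7.92%. Members with CCAAT (117) had a median log2 change of -0.13 and those without (109) -0.08, while members with the ETS motif (52) had -0.0462 and those without (174) -0.12. Members with the E-box (17) had -0.09 and those without (209) -0.11. For the other 4 motifs the medians with the motif lay between -0.13 and -0.09. With the most GC-rich promoter of each gene taken, the members had a median promoter GC of 56.2%, against 62.7% for other expressed genes. A match is a description of letters, not a binding site.

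Other C2H2 genes were also described. The 164 expressed protein-coding genes with at least 3 fingers and another symbol had a median of -0.09, with 104 lower and 60 higher. Among them, 27 Zbtb genes had -0.08 (18 lower), 16 Zscan and Zkscan genes -0.11 (12 lower), and 12 Klf genes -0.0259 (6 lower). At the same FPKM sum these became -0.0099 (14 lower) for Zbtb, -0.0464 (12 lower) for Zscan and Zkscan and 0.0330 (6 lower) for Klf. The 35 numbered gene models had -0.18 but shared a median of 64.9% of their words with other genes. The difference between these genes and the members was not tested.

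At the edge of the threshold, Zfp772 (0.760 FPKM at 25 mM, against 1.25 FPKM at 2.8 mM), Zfp58 (0.870 and 1.21 FPKM at 25 and 2.8 mM) and Zfp641 (1.05 and 1.04 FPKM at 25 and 2.8 mM) were just inside, and Zfp457 (0.824 and 1.14 FPKM at 25 and 2.8 mM), Zfp975 (0.868 and 1.07 FPKM at 25 and 2.8 mM) and Zfp182 (1.12 and 0.823 FPKM at 25 and 2.8 mM) just outside. Of the 126 Zfp genes below the threshold, 29 were listed at 0 in both libraries.

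The libraries corresponded to 16640000 fragments at 25 mM and 19520000 at 2.8 mM, and listed 19412 genes above 0 at 25 mM and 20068 at 2.8 mM. Mitochondrial genes took 3.83% of the FPKM sum at 25 mM and 4.07% at 2.8 mM. The beta-cell label held, with Ins2 at 50846 FPKM at 25 mM, against 60328 FPKM at 2.8 mM and 8 of 10 islet markers expressed, although Gcg, the glucagon gene of alpha cells, was also at 2764 and 2804 FPKM at 25 and 2.8 mM. Of 16 acinar, ductal, stromal and immune markers 12 were listed at 0 in both libraries, and their summed level was 4.15 FPKM at 25 mM, against 5.43 FPKM at 2.8 mM, nearly all of it from Cd68 (3.98 and 5.20 FPKM at 25 and 2.8 mM).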

How the data were processed

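RNA from MIN6 cells was sequenced in 1 library per glucose concentration, grouped by the treatment label. The deposited values are FPKM per gene, per the file headers. Per the submitters' processing notes, HISAT2, Cuffdiff and GRCm38 were used, with no version given. Nothing in the labels gives the library kit, the strandedness or the annotation release. FPKM is relative to transcript length, and its value for a gene with isoforms or copies rests on the authors' division of reads between them. An emptied line (1 per file) was left out.

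Genes were taken as expressed at a mean of 1 FPKM or more, and 1 FPKM was added to each value as pseudocount before log2 changes were taken. There is no test, SE or p-value, since each group is 1 library. Members and lists were chosen with earlier results of these data known. Named were the 10 members with the highest mean, the 10 with the highest and the 10 with the lowest log2 change, the expressed genes of the role lists, the 3 genes on each side of the threshold and the largest cluster. Copies, promoter examples, other clusters and partner genes were chosen after their values were seen.

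KRAB, SCAN, BTB and CCCH classes came from the Pfam and InterPro entries in the deposited tables, in place of the RefSeq proteins first planned. Fingers were counted in the translated longest coding sequence (pattern C-x(2,4)-C-x(12)-H-x(2,6)-H) of GENCODE release 21, which held all 271 members. Shared sequence is the percentage of the longest transcript's 31-base words that any other gene's transcripts hold, on either strand. Depth came from the FPKM steps of genes with 1 transcript of at least 800 nt, where 94.4% of 2230 values at 25 mM and 94.9% of 2534 at 2.8 mM were within 0.1 of a whole fragment. Fragments were recovered for transcripts of at least 500 nt. The intervals cover counting error only, because each concentration had 1 library. PCR duplicates, which FPKM values do not show, would make them too narrow. A simulation with planted changes covered the log2 change and the 1.5-fold call only, not the depth fit, the fragment recovery or the intervals. Scripts used Biopython 1.88, SciPy 1.17.1, pandas 2.3.3, NumPy 2.4.6, matplotlib 3.10.9 and Python 3.11.15.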

Additional observations from a re-analysis of the deposited data

How the results depend on the processing

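No paired analysis was possible because each concentration had a single library, and for the same reason no library could be left out. Alternatives were pseudocounts of 0.1 and 5, no filter and a filter of 5 FPKM, rescalings, genes with under 20% of words shared, genes with 1 transcript, a 3-fold threshold, and, chosen after the data were seen, centring on other genes of the same level or GC content. The members' median log2 change was negative throughout: -0.0590 with a pseudocount of 5, -0.0426 at the same FPKM sum with the filter reapplied (270 members), -0.0644 at the same sum without mitochondrial and the 10 most abundant genes, and -0.16 for 1-transcript genes. Members lower and higher numbered 93 and 39 at 5 FPKM or more (70.5% lower, where 54.4% of protein-coding genes were), and 20 and 4 among 1-transcript genes (83.3% and 53.4%). Members at least 1.5-fold lower numbered 19 with a pseudocount of 0.1, 0 with 5, 2 at 5 FPKM or more, 0 among 1-transcript genes and 0 at 3-fold. Members at least 1.5-fold higher numbered 1 with a pseudocount of 5, 0 at 5 FPKM or more, 1 with under 20% shared, 0 among 1-transcript genes and 0 at 3-fold. At 2-fold, 2 were lower with a pseudocount of 0.1, and 3 were higher with 0.1 but 0 with 5, at 5 FPKM or more, with under 20% shared or among 1-transcript genes. The KRAB median was -0.0690 with a pseudocount of 5, -0.0662 at the same sum and -0.21 for 1-transcript genes. Members with fewer than 3 fingers reversed to 0.0114 at the same sum and had -0.17 for 1-transcript genes. Other C2H2 genes had -0.0325 and -0.0178 under these settings. The ubiquitin and SUMO list had -0.0042 at the same sum and -0.0283 without mitochondrial and abundant genes. Counting intervals wholly below 0 numbered 5 at the same sum, 4 with under 20% shared and 1 with both, all chosen after the data were seen. Apart from the thresholds, filters and rescalings themselves, the cause of these moves was not tested. Of the 80 members run (64 named by rule and 16 others described), 74 kept their sign under every setting, as did the 10 at least 1.5-fold apart. The exceptions were Zfp131, Zfp346, Zfp36l2, Zfp518a, Zfp560 and Zfp91. A pseudocount or filter cannot change a sign, and rescaling or centring moved genes by small amounts. A kept sign therefore follows from the size of the change, and for the 10 it was fixed in advance. Depth limits single members, and not only those below 2 FPKM. Zfp830, at 10.1 FPKM at 25 mM, against 11.6 FPKM at 2.8 mM, had a counting interval of -0.46 to 0.05. The unknown spread between cultures limits all members.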
